A study of Mus musculus with 44 samples.

Results

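Sorted satellite glial cells taken 3 days after ligation of the sciatic nerve were compared with sorted satellite glial cells taken 3 days after sham surgery. The libraries were chosen by their labels, 4 after ligation and 4 after sham surgery, which makes 8 of the 44 RNA sequencing libraries of the series. All 8 came from C57BL/6 mice of 9 to 11 weeks. The ligated group had a full ligation of the sciatic nerve, the sham group had sham surgery, and the labels name no transgene and no drug. In both groups the L3 and L4 dorsal root ganglia were dissociated with enzymes, fixed with paraformaldehyde, stained, sorted by flow cytometry and purified with a kit made for fixed tissue, and each library was sequenced over 3 lanes. Satellite glia 14 days after the same surgeries (4 libraries per group) shared the statistical fit and served as a second time point. Naive satellite glia and whole ganglia (4 libraries each, mice of 9 weeks) and isolated neurons 8 days after partial ligation or sham surgery (6 libraries each, 3 from male and 3 from female mice) are used only to show levels. The 14-day and neuron groups were also of 9 to 11 weeks. No label gives the sex of the mice behind the 8 libraries, says which libraries share an animal, or says whether ganglia were pooled, so a p-value here reflects no more than how far libraries of a group differ from each other.

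A satellite glial cell wraps the cell body of a sensory neuron in the ganglion and takes up the potassium and glutamate that the neuron releases. When the axon is cut or tied in the nerve, the neuron switches on a set of transcription factors led by Atf3, Jun and Sox11, releases peptides such as galanin and makes growth cone proteins for regrowth. Glia also supply neurons with lipid, and cholesterol is built from acetyl-CoA by a chain of enzymes whose genes are driven together by the transcription factor SREBP2, which the cell activates when its membranes are low in sterol.

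The sorted libraries carried the markers of satellite glia at high levels. Fabp7, a fatty acid binding protein of satellite glia, had 7019, 10691, 6604 and 8181 FPKM in the ligated libraries, against 7893, 11291, 8234 and 10531 FPKM in the sham libraries. The groups overlapped for Fabp7, and the 15 satellite glial markers summed to 14608 to 21108 FPKM after ligation and 15604 to 20869.9 FPKM after sham surgery. Of the 15 markers, 5 had a positive and 10 a negative difference, with a median log2 difference of -0.07 and no gene called. In the lower direction 3 had an unadjusted limma p under 0.05, where 4.87% of all genes had one. The groups did not overlap for 2 in the lower direction, where 2% of all genes were lower without overlap. RNA of neurons was present as well. Snap25, a synaptic vesicle fusion protein of neurons, had 52.7, 28.3, 43.8 and 78.6 FPKM in the ligated libraries, against 115, 76.4, 51.2 and 28.3 FPKM in the sham libraries. In bulk libraries such as these, more or fewer cells of a type and more or less RNA per cell cannot be told apart. Between 11452 and 12775 genes reached 1 FPKM per library in the table of satellite glia after surgery, and total reads per library are not used here, so the depth is unknown and no counting error can be given.

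A total of 13924 genes were tested with limma on log2(FPKM + 1), where FPKM scales fragments to transcript length and to the mapped fragments of a library, and a gene was called when its Benjamini-Hochberg adjusted p over all of them was under 0.05. After ligation, 6 genes (0.0431% of those tested) were called higher and 3 (0.0215%) lower. The 6 higher genes were Gal, Atf3, Sox11, Flrt3, Stmn4 and Snora21, and the 3 lower ones were Hmgcs1, Lss and Polr2b. An unadjusted p under 0.05 was found for 591 genes in the higher direction (4.24%) and 678 in the lower (4.87%), 1269 in all. The values of the groups did not overlap for 249 genes that were higher after ligation (1.79%) and 278 that were lower (2%). The median log2 difference over all genes tested was -0.01, with quartiles at -0.28 and 0.25, and 51.4% of genes had a negative difference.

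The calls sat near the threshold. Without ligated replicate 1 the count was 6, with 3 of the 9 among them. Without ligated replicate 2 the count fell to 4, without ligated replicate 3 to 3, and without sham replicate 1 or sham replicate 4 to 5, against 9 with all libraries. Without ligated replicate 4, sham replicate 2 or sham replicate 3, only Polr2b was called. The count also moved with the 14-day libraries in the fit. It was 13 without 14-day ligated replicate 2 or 4, 11 without 14-day ligated replicate 3, 7 without 14-day sham replicate 2, 5 without 14-day sham replicate 1, and 1 without 14-day ligated replicate 1, 14-day sham replicate 3 or 14-day sham replicate 4. With the 3-day groups alone it was 4, of which 2, Polr2b and Snora21, were among the 9, and Gal, Atf3, Sox11, Flrt3, Stmn4, Hmgcs1 and Lss were not called (limma adjusted p from 0.107 to 0.358). Gal, Atf3, Sox11, Flrt3 and Stmn4 kept a positive difference, and Hmgcs1 and Lss a negative one, under every alternative in which they were tested. Hmgcs1, Lss and Snora21 lost their call whichever of the 8 libraries was left out. Sox11 stayed called without ligated replicate 1, ligated replicate 2, sham replicate 1 or sham replicate 4, Flrt3 without ligated replicate 2 or sham replicate 4, Gal without sham replicate 4, Atf3 without sham replicate 1 and Stmn4 without ligated replicate 1, each losing its call without any other of the 8.

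**Figure D1:**
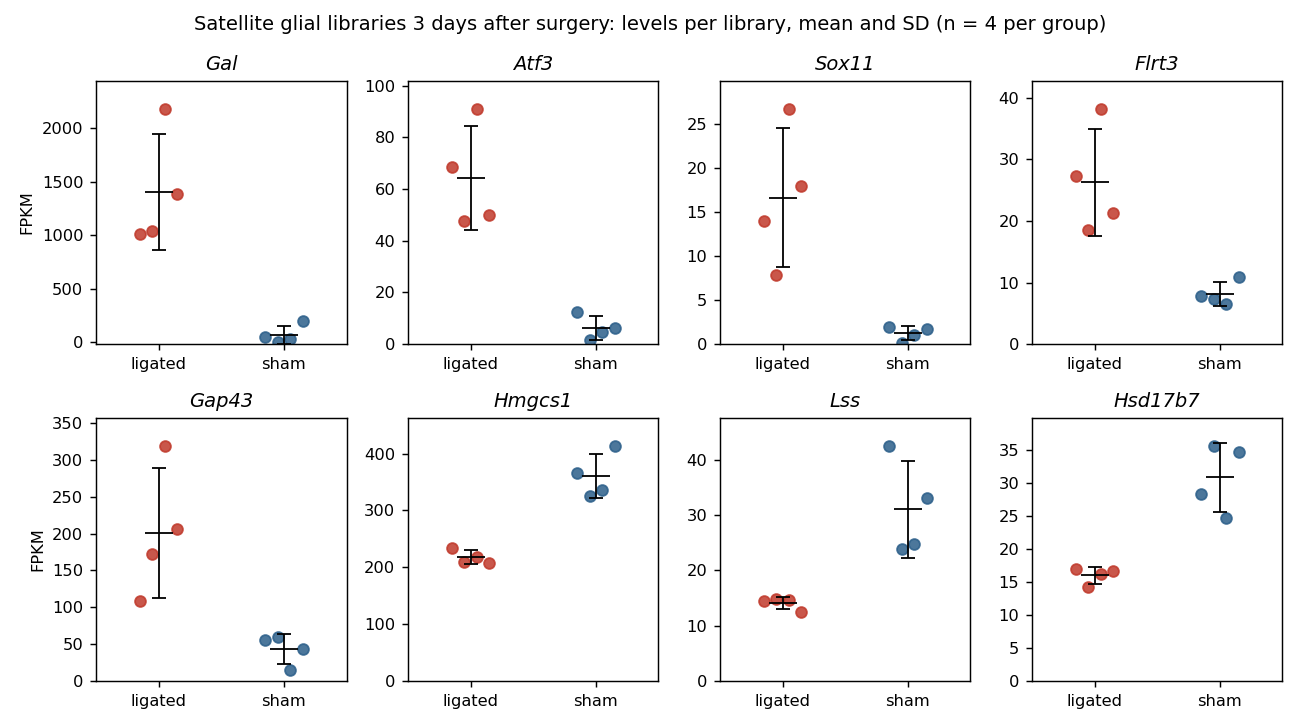
FPKM of 8 genes in the 4 ligated (red, left) and 4 sham (blue, right) satellite glial libraries at 3 days, with a panel and a linear axis per gene. Points are libraries, the horizontal bar is the mean and the whiskers are 1 SD; the groups do not overlap in any of the 8 panels, with Gal between 1014 and 2176 FPKM after ligation and Hmgcs1 between 207 and 234 FPKM after ligation.

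Transcription factors of the injury response stood out first. Atf3 (activating transcription factor 3; ENSMUSG00000026628, chromosome 1, 191170296 to 191218039, minus strand, GRCm38), the factor most used to mark injured sensory neurons, had 68.4, 47.7, 90.9 and 49.9 FPKM in the ligated libraries, against 12.6, 1.48, 4.72 and 6.34 FPKM in the sham libraries. Every ligated library was above every sham library, and Atf3 rose by a log2 difference of 3.36 ± 0.51 (SE; limma adjusted p = 0.0331). Sox11 (ENSMUSG00000063632, chromosome 12, 27334264 to 27342574, minus strand), a factor of embryonic and regenerating neurons, had 13.97, 7.88, 26.7 and 18.03 FPKM in the ligated libraries, against 1.98, 0.194, 1.02 and 1.70 FPKM in the sham libraries. Sox11 rose by 2.95 ± 0.42 (SE; limma adjusted p = 0.0331), again with no overlap. In the authors' deposited table, which tests counts with DESeq2, Atf3 had a log2 fold change of 3.23 (adjusted p = 9.43e-08) and Sox11 of 3.74 (adjusted p = 1.86e-07).

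Of the 12 transcription and stress factors of regeneration on the list, all of which were tested, 10 had a positive and 2 a negative difference, 2 were called higher and 4 did not overlap in the higher direction, where 0.0431% and 1.79% of all genes did, with a median log2 difference of 0.69. Gadd45a, a growth arrest and DNA damage protein, had 71.9, 35.3, 102 and 53.5 FPKM in the ligated libraries, against 18.3, 3.04, 13.1 and 10.3 FPKM in the sham libraries. The groups did not overlap for Gadd45a, with a log2 difference of 2.55 ± 0.49 that missed the threshold (SE; limma adjusted p = 0.0816). Smad1, which carries BMP signals to the nucleus and takes part in axon regrowth, had 24.1, 17.7, 24.9 and 23.9 FPKM in the ligated libraries, against 12.6, 10.8, 9.57 and 11.1 FPKM in the sham libraries. All 4 ligated libraries were above all 4 sham libraries for Smad1, and the log2 difference came to 0.97 ± 0.17 (SE; limma adjusted p = 0.0578). Gadd45a (2.62, adjusted p = 9.25e-05) and Smad1 (1.05, adjusted p = 1.69e-05) were past 0.05 in the authors' deposited table, and so was Stat3 (0.32, adjusted p = 0.0272), which passes cytokine signals to the nucleus. In the FPKM values Stat3 had 48.1, 106, 52.8 and 53.6 FPKM in the ligated libraries, against 72.7, 83.9, 76.9 and 38.4 FPKM in the sham libraries, so the groups overlapped, and the difference of -0.08 had the other sign.

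The other regeneration factors overlapped between the groups. Jun, the partner of Atf3 in many dimers, had 37.01 to 97.9 FPKM after ligation against 43.8 to 65.03 FPKM after sham surgery, a log2 difference of 0.17 ± 0.25 (SE). Klf6, a zinc finger factor of axon growth, differed by 0.38, Myc by 0.70 and Ddit3, a factor of endoplasmic reticulum stress, by 0.36, all with unadjusted p over 0.05. Cebpd (0.69, unadjusted p = 0.0288 in limma) and the small heat shock protein gene Hspb1 (0.99, unadjusted p = 0.0314 in limma) were higher after ligation on average. The remaining member, Creb3, differed by less than its SE.

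Among secreted peptides, galanin dominated. Gal (ENSMUSG00000024907, chromosome 19, 3409915 to 3414544, minus strand) encodes a neuropeptide that injured sensory neurons begin to make. It had 1014, 1037, 2176 and 1382 FPKM in the ligated libraries, against 53.4, 4.39, 29.8 and 197 FPKM in the sham libraries. Every ligated library was far above the highest sham library, and Gal rose by a log2 difference of 5.19 ± 0.82 (SE; limma adjusted p = 0.0333). Sham replicate 4 held the most Gal of the sham group and the least Snap25 of it, and also the most Nts and Gpr151. The source of its Gal was not tested.

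Of the 12 injury-induced peptides, secreted factors and receptors, 10 were tested, 9 with a positive and 1 with a negative difference, 1 called higher and 2 without overlap in the higher direction, against 0.0431% and 1.79% of all genes. The median log2 difference was 1.39, a value that depends on how low genes are treated: it was 3.11 with a pseudocount of 0.1, 0.84 with no filter, 0.93 without ligated replicate 1, and 0.44 with a filter of 5 FPKM, with only genes above 0 in all 16 libraries or with the 3-day groups alone. Vip and Reg3b did not reach the filter of 1 FPKM in 4 libraries. Gpr151, a receptor of sensory neurons that responds to injury, had 1.64, 4.26, 8.04 and 6.26 FPKM in the ligated libraries, against 0, 0, 0.286 and 1.42 FPKM in the sham libraries. Its groups did not overlap, and the log2 difference was 2.05 ± 0.50 (SE; limma adjusted p = 0.188). Ecel1, a membrane peptidase induced by axon damage, had 0.538, 6.85, 2.43 and 4.50 FPKM in the ligated libraries, against 0.0175, 0, 0.0443 and 0.991 FPKM in the sham libraries. Its ranges overlapped through ligated replicate 1 and sham replicate 4, and the log2 difference was 1.69 ± 0.44 (SE; limma adjusted p = 0.253). The cholecystokinin receptor gene Cckbr differed by 1.25 with overlap.

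Other ligands of this list varied from library to library. Npy, neuropeptide Y, had 12.1, 0.219, 2.53 and 5.97 FPKM in the ligated libraries, against 0, 0, 4.74 and 0 FPKM in the sham libraries. Nts, neurotensin, had 12.2, 36.3, 42.7 and 4.98 FPKM in the ligated libraries, against 20.97, 2.27, 9.35 and 50.9 FPKM in the sham libraries. Both overlapped, and their log2 differences of 1.52 ± 0.99 and 0.44 ± 0.72 (SE) were not called. Csf1, the growth factor by which injured sensory neurons call on microglia and macrophages, had 15.3 to 31.6 FPKM after ligation against 11.3 to 19.1 FPKM after sham surgery and a log2 difference of 0.44 ± 0.24 (SE). Bdnf, a neurotrophin, was the 1 tested member with a negative difference, -0.94, and Adcyap1 differed by less than its SE. Crh, corticotropin-releasing hormone, had 10.9, 0.0677, 3.63 and 0.352 FPKM in the ligated libraries, against 0.119, 0, 0.0335 and 0 FPKM in the sham libraries. It was present above 1 FPKM only in ligated replicates 1 and 3, and the authors' deposited table gave it a log2 fold change of 6.40 (adjusted p = 0.00838).

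Growth cone and cytoskeletal genes formed the third group. Flrt3 (ENSMUSG00000051379, chromosome 2, 140650914 to 140671469, minus strand), a transmembrane guidance protein, had 27.2, 18.6, 38.1 and 21.3 FPKM in the ligated libraries, against 7.82, 7.37, 6.46 and 10.9 FPKM in the sham libraries. It rose by a log2 difference of 1.55 ± 0.24 (SE; limma adjusted p = 0.0331) with no overlap. Stmn4 (ENSMUSG00000022044, chromosome 14, 66344296 to 66361680, plus strand), a stathmin that binds tubulin, had 3.17, 18.4, 9.94 and 7.19 FPKM in the ligated libraries, against 0.231, 0, 0.382 and 0.591 FPKM in the sham libraries. Stmn4 rose by 2.85 ± 0.48 (SE; limma adjusted p = 0.0457), a value that depends on the pseudocount because the sham libraries were near 0, and the authors' deposited table gave 5.66 (adjusted p = 1.66e-10). Of the 14 listed genes, 13 were tested, with 12 positive differences and 1 negative, 2 called higher and 6 without overlap in the higher direction, against 0.0431% and 1.79% of all genes. Their median log2 difference was 0.94, with 0.31 over only the genes above 0 in all 16 libraries and 1.38 with array weights. Tubb3 was not analysed here.

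Gap43, the classical growth cone protein, had 109, 172, 319 and 206 FPKM in the ligated libraries, against 55.1, 59.9, 14.2 and 43.2 FPKM in the sham libraries. Its groups did not overlap, the log2 difference was 2.27 ± 0.53 (SE; limma adjusted p = 0.172), and the authors' deposited table had it past 0.05 (2.36, adjusted p = 3.95e-05). Sprr1a, a small proline-rich protein of regenerating axons, had 35.9, 48.3, 412 and 118 FPKM in the ligated libraries, against 17.997, 0, 1.02 and 8.79 FPKM in the sham libraries. The difference of 4.47 ± 0.89 (SE) did not pass (limma adjusted p = 0.0919) although no value overlapped, and the ligated libraries spread widely among themselves. Tubb2b, a neuronal beta-tubulin, had 10.4, 11.9, 22.3 and 13.04 FPKM in the ligated libraries, against 9.57, 3.41, 3.14 and 3.40 FPKM in the sham libraries, with a log2 difference of 1.45 ± 0.37 (SE; limma adjusted p = 0.236). Tuba1a, an alpha-tubulin whose near-identical copies make its level uncertain, was separate by a smaller step, 0.31. Stmn2 (1.33), Basp1 (0.94) and Map1b (0.25) were higher on average with overlap, the neural adhesion gene Ncam1 differed by -0.10, and the other tested members differed by less than their SE.

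General neuron markers were examined next. Of 16 markers, all tested, 7 had a positive and 9 a negative difference, and none was called. The groups did not overlap for 1, Sncg, in the lower direction, where 2% of all genes were lower without overlap. The mean log2(FPKM + 1) of the 16 was 4.42, 3.87, 4.46 and 4.65 in the ligated libraries, against 5.36, 4.74, 3.78 and 3.25 in the sham libraries. The sham libraries thus spanned a wider range than the ligated ones and lay on both sides of them. Summed over the list, the markers came to 1811 to 2415 FPKM after ligation and 2315 to 3000.0 FPKM after sham surgery. These sums largely reflect Sncg. Its baseMean in the authors' deposited table was 36154.7, against 3077.14 for Snap25. In naive satellite glia, scaled separately, Sncg had 2203 to 2447 FPKM. The mean of the growth cone genes over the same libraries was 5.37, 5.59, 6.36 and 5.85 in the ligated libraries, against 5.10, 4.55, 4.22 and 4.54 in the sham libraries, with no overlap. The part of neuronal RNA in the rise of Gal, Atf3, Sox11, Flrt3 and Stmn4 was not tested beyond these values.

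**Figure D2:**
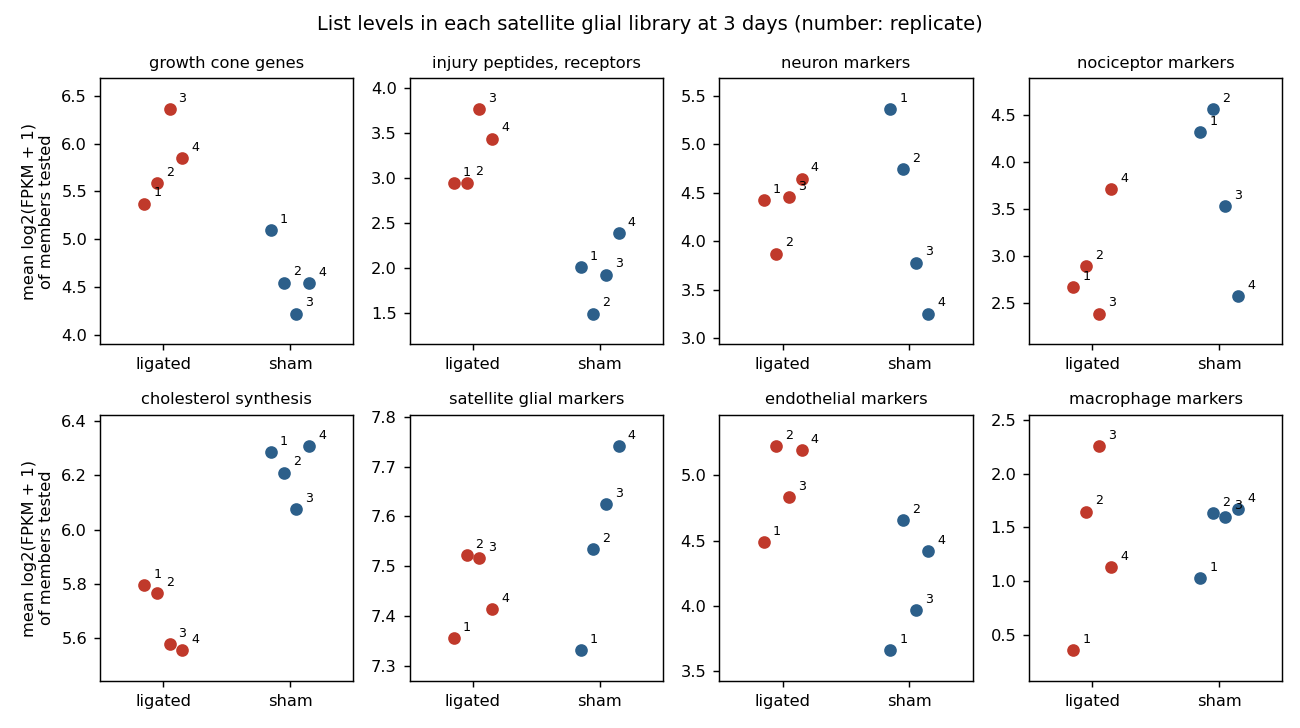
Mean log2(FPKM + 1) of the tested members of 8 gene lists in each library at 3 days, ligated (red) left of sham (blue), with the replicate number beside each point and an axis of its own per panel that does not start at 0. Growth cone genes, injury peptides and cholesterol synthesis enzymes separate the groups, while neuron, satellite glial and macrophage markers overlap, the neuron markers running from 3.25 to 5.36 over the sham libraries.

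No marker of a sensory neuron class was called. Of 10 nociceptor markers, 6 were tested, 1 with a positive and 5 with a negative difference and a median log2 difference of -0.98, with none called. Scn10a, a sodium channel of pain-sensing neurons, had 0.736, 1.96, 1.11 and 1.82 FPKM in the ligated libraries, against 7.40, 3.90, 2.47 and 2.09 FPKM in the sham libraries. The groups did not overlap for Scn10a, and the log2 difference was -0.96 ± 0.31 (SE; limma adjusted p = 0.358). Trpa1, an irritant channel of the same neurons, was below the filter with 0, 0.00915, 0.29 and 0.0863 FPKM in the ligated libraries, against 1.47, 4.84, 0.883 and 0.493 FPKM in the sham libraries, and in the authors' deposited table it had a log2 fold change of -3.99 (adjusted p = 0.00838). Of 9 markers of large-diameter neurons, 8 were tested, with 1 positive and 7 negative differences and a median of -0.54 (-0.34 without sham replicate 1). Among them Kcna2, a potassium channel of axons, had 8.33 to 12.5 FPKM after ligation against 12.8 to 19.2 FPKM after sham surgery, a log2 difference of -0.56 ± 0.15 (SE) that was not called (limma adjusted p = 0.283).

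Cholesterol synthesis lay in the other direction along nearly the whole pathway. Of the 18 enzymes counted here, 17 were tested, 16 with a negative and 1 with a positive difference. Both Hmgcs1 and Lss were called lower, 13 members had an unadjusted limma p under 0.05 in the lower direction, where 4.87% of all genes did, and 11 did not overlap in the lower direction, where 2% of all genes did. The median log2 difference was -0.58, and it lay between -0.66 and -0.53 under every alternative run. Summed over the 17, the enzymes came to 1152 to 1394 FPKM after ligation and 1781 to 2121 FPKM after sham surgery, with no overlap. Over the same libraries the sums of the satellite glial markers overlapped, while endothelial markers were higher on average after ligation, and the part of either in the enzyme levels was not tested. Mvd was not analysed here.

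Hmgcs1 (ENSMUSG00000093930, chromosome 13, 119690379 to 119708260, plus strand) makes HMG-CoA at the entry of the pathway. It had 234, 209, 218 and 207 FPKM in the ligated libraries, against 366, 326, 337 and 414 FPKM in the sham libraries. Hmgcs1 fell by a log2 difference of -0.72 ± 0.11 (SE; limma adjusted p = 0.0333), and the 4 ligated libraries lay closer together than the sham libraries. Acat2, which supplies acetoacetyl-CoA, differed by -0.60 ± 0.17 (SE) with no overlap. The kinases that follow were the exception: Mvk had 65.02, 58.6, 33.6 and 32.5 FPKM in the ligated libraries, against 46.2, 44.7, 32.3 and 23.8 FPKM in the sham libraries, the only positive difference of the pathway at 0.34 ± 0.35 (SE), and Pmvk had 55.5 to 78.2 FPKM after ligation against 49.3 to 80.05 FPKM after sham surgery with a difference smaller than its SE.

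The isoprenoid and squalene steps again had negative differences. Idi1 differed by -0.76 ± 0.40, Fdps by -0.58 ± 0.26, Fdft1, which makes squalene, by -0.42 ± 0.17, and Sqle, which oxidises it, by -0.54 ± 0.14 (SE). Fdps and Sqle did not overlap, Idi1 and Fdft1 did. Lss (ENSMUSG00000033105, chromosome 10, 76531588 to 76557138, plus strand) closes the ring to lanosterol and had 14.5, 14.7, 14.6 and 12.5 FPKM in the ligated libraries, against 42.5, 23.8, 24.7 and 33.01 FPKM in the sham libraries. Lss fell by -1.05 ± 0.17 (SE; limma adjusted p = 0.0457), the deepest negative difference of the 17. The ligated libraries were tight for Lss and the sham libraries were not, with sham replicates 1 and 4 above the other two.

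From lanosterol to cholesterol, all the enzymes tested here had a negative difference. Hsd17b7, a reductase of the ring, had 17.01, 14.2, 16.3 and 16.6 FPKM in the ligated libraries, against 28.4, 35.7, 24.8 and 34.7 FPKM in the sham libraries. The groups did not overlap, and the log2 difference was -0.89 ± 0.18 (SE; limma adjusted p = 0.0896). The demethylase gene Cyp51 differed by -0.60, the reductase gene Tm7sf2 by -0.58, the oxidase gene Msmo1 by -0.70, the desaturase gene Sc5d by -0.57 and the last reductase, Dhcr7, by -0.58, all 5 with no overlap. Nsdhl (-0.61) and the isomerase gene Ebp (-0.39) were lower on average with overlapping groups. The authors' deposited table had 7 of these 17 enzymes past 0.05, all lower after ligation, where 0.515% of its genes with an adjusted p were. Among them were Hmgcs1 (-0.73, adjusted p = 9.25e-05) and Msmo1 (-0.75, adjusted p = 0.00106).

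**Figure D3:**
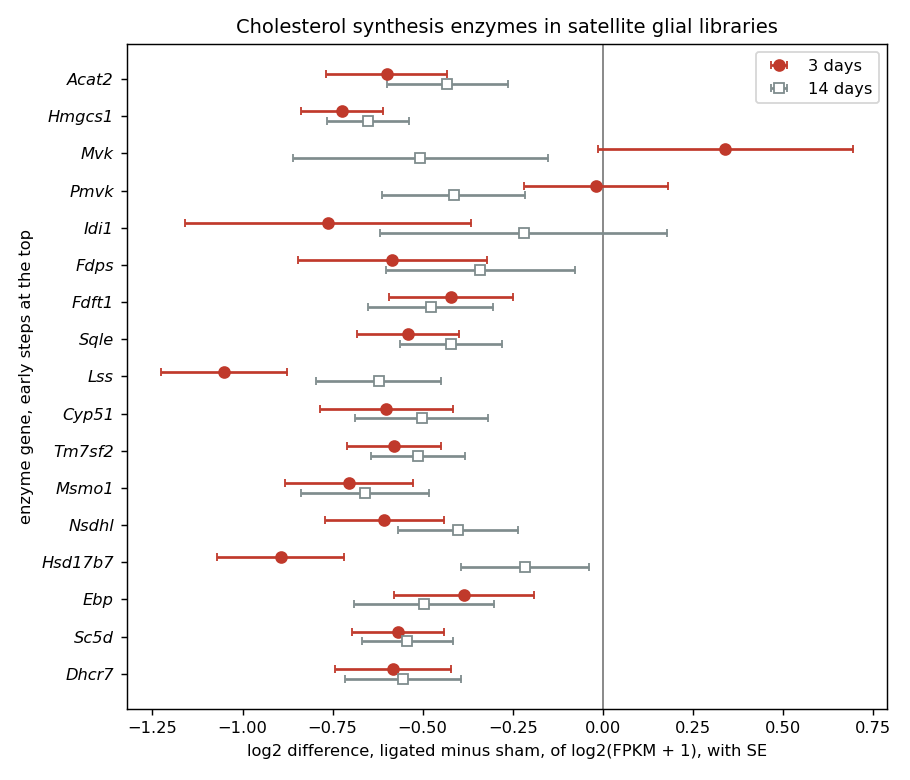
Log2 difference of log2(FPKM + 1), ligated minus sham, with its SE, for 17 tested cholesterol synthesis enzymes in the order of the pathway from top to bottom, at 3 days (filled red circles) and 14 days (open grey squares), 4 libraries per group at each day. At 3 days 16 of the 17 lie left of 0, Lss the farthest at -1.05, and Mvk lies right of it at 0.34.

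The promoters of 4 called genes are printed because these genes lead the cholesterol and the injury groups. They run from 250 bases before to 50 bases after the start of the RefSeq transcript (RefSeq, GRCm38.p6), 5′ to 3′ on the gene's strand, and capitals mark 5 motifs searched on both strands: CACCCCAC (sterol regulatory element core), CCAAT (NF-Y box), GGGCGG (GC box), TGACTCA (AP-1 site) and TGACGTCA (cyclic AMP response element). Neighbouring or overlapping matches run together in the capitals. Hmgcs1 (chr13:119690101-119690400, plus strand) and Lss (chr10:76531355-76531654, plus strand) fell, and Gal (chr19:3414495-3414794, minus strand) and Atf3 (chr1:191183284-191183583, minus strand) rose.
Hmgcs1: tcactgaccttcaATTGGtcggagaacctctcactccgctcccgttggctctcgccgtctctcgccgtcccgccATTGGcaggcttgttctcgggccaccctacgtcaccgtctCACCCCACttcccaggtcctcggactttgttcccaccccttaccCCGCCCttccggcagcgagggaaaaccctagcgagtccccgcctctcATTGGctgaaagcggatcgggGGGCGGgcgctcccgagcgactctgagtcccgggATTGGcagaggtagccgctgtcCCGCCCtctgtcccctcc
Lss: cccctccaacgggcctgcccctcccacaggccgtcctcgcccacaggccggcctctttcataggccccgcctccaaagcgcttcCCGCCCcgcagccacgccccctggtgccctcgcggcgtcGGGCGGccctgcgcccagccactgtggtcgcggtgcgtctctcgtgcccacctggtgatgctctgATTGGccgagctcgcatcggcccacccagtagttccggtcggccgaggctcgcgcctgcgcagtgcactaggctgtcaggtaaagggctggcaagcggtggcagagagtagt
Gal: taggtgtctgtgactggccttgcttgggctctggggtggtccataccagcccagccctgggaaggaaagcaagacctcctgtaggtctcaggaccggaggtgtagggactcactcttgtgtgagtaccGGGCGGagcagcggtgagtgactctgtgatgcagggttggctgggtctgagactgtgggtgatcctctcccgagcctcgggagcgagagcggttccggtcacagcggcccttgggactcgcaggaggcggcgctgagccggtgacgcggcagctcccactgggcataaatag
Atf3: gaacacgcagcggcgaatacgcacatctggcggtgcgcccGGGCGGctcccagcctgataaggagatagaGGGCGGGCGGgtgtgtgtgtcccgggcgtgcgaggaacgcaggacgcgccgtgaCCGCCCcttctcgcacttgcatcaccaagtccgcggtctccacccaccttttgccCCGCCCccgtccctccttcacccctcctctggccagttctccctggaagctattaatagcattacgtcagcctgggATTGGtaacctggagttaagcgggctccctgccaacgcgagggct

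The Hmgcs1 promoter held 8 matches: the sterol element once, the NF-Y box 4 times and the GC box 3 times. The Lss promoter held 3, 1 NF-Y box and 2 GC boxes, with no sterol element of these letters in the window. Among the 17 tested enzymes, 14 had a promoter in the table, 17 windows in all. The NF-Y box was in 13 of those windows (76.5%), against 37.4% of the 32851 windows of the table, and the GC box in 14 (82.4%) against 35.7%. The sterol element core was in 2, Hmgcs1 and Acat2 (11.8%), against 2.87%. The AP-1 site was in 2, Dhcr7 and Msmo1 (11.8%), against 5.20% of all windows, and the cyclic AMP element in none, against 1.79%. In the 32 windows of 25 tested genes of the injury, regeneration and growth cone lists, the NF-Y box was in 15 (46.9%), the GC box in 18 (56.3%) and the AP-1 site in 3 (9.38%), in Sprr1a, Nts and Ddit3, while the sterol element and the cyclic AMP element had no match. These matches describe letters in the windows and were not tested as binding sites.

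Genes that take up, sense or export cholesterol did not share the shift of the enzymes. Of 13 genes of uptake and control, all tested, 8 had a positive and 5 a negative difference, and the median log2 difference was 0.04. Srebf2, which encodes SREBP2, had 9.32, 10.7, 8.45 and 7.91 FPKM in the ligated libraries, against 11.7, 12.7, 9.39 and 11.4 FPKM in the sham libraries, with overlap and a log2 difference of -0.28 ± 0.17 (SE). Srebf1, which encodes the related factor of fatty acid genes, had 14.8, 18.7, 16.4 and 14.2 FPKM in the ligated libraries, against 9.43, 10.1, 12.9 and 13.7 FPKM in the sham libraries. It was the 1 member without overlap, where 1.79% of all genes were higher without overlap. Its difference of 0.45 ± 0.21 (SE) was not called (limma adjusted p = 0.531).

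Stard4 and Insig1, sterol-responsive members of that list, had negative differences that were not called. Stard4, a sterol carrier, had 5.05 to 15.7 FPKM after ligation against 13.9 to 20.2 FPKM after sham surgery and differed by -0.79 ± 0.26 (SE; limma adjusted p = 0.355). Insig1, which holds the SREBPs in the endoplasmic reticulum, differed by -0.45 ± 0.21 (SE) with overlap. Npc2, which moves cholesterol out of lysosomes, differed by -0.26. Of 11 genes of efflux, storage and carriers, 7 had a positive and 4 a negative difference, with a median of 0.03 and none called. Within it Ch25h, which makes 25-hydroxycholesterol, a sterol that shuts off SREBP processing, had 0.608, 12.4, 9.09 and 13.6 FPKM in the ligated libraries, against 1.55, 1.92, 1.09 and 0 FPKM in the sham libraries. It was high in ligated replicates 2, 3 and 4 and low in ligated replicate 1. The log2 difference came to 1.92 ± 0.60 (SE; limma adjusted p = 0.331), and without ligated replicate 1 it was 2.66 and past the threshold (limma adjusted p = 0.0401). The authors' deposited table had Ch25h past 0.05 (3.02, adjusted p = 0.0285).

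No gene of fatty acid synthesis was called. Of 12 genes, all tested, 11 had a negative difference and 3 did not overlap in the lower direction, where 2% of all genes did. The median log2 difference was -0.21, and -0.32 without sham replicate 1. Acly, which makes the cytosolic acetyl-CoA that feeds both lipid pathways, had 26.2, 29.1, 32.5 and 32.6 FPKM in the ligated libraries, against 60.2, 46.9, 42.7 and 49.6 FPKM in the sham libraries. Its groups did not overlap, and the difference of -0.70 ± 0.13 (SE) missed the threshold (limma adjusted p = 0.0739), while the authors' deposited table had it past 0.05 (-0.74, adjusted p = 0.000464). Acss2, which makes acetyl-CoA from acetate, differed by -0.83 ± 0.23 (SE) with overlap. The elongase gene Elovl6 (-0.43) and the desaturase gene Fads1 (-0.37) did not overlap. Of 10 genes of fatty acid oxidation and PPAR targets, 9 had a negative difference, with a median of -0.19 and none called.

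**Figure D4:**
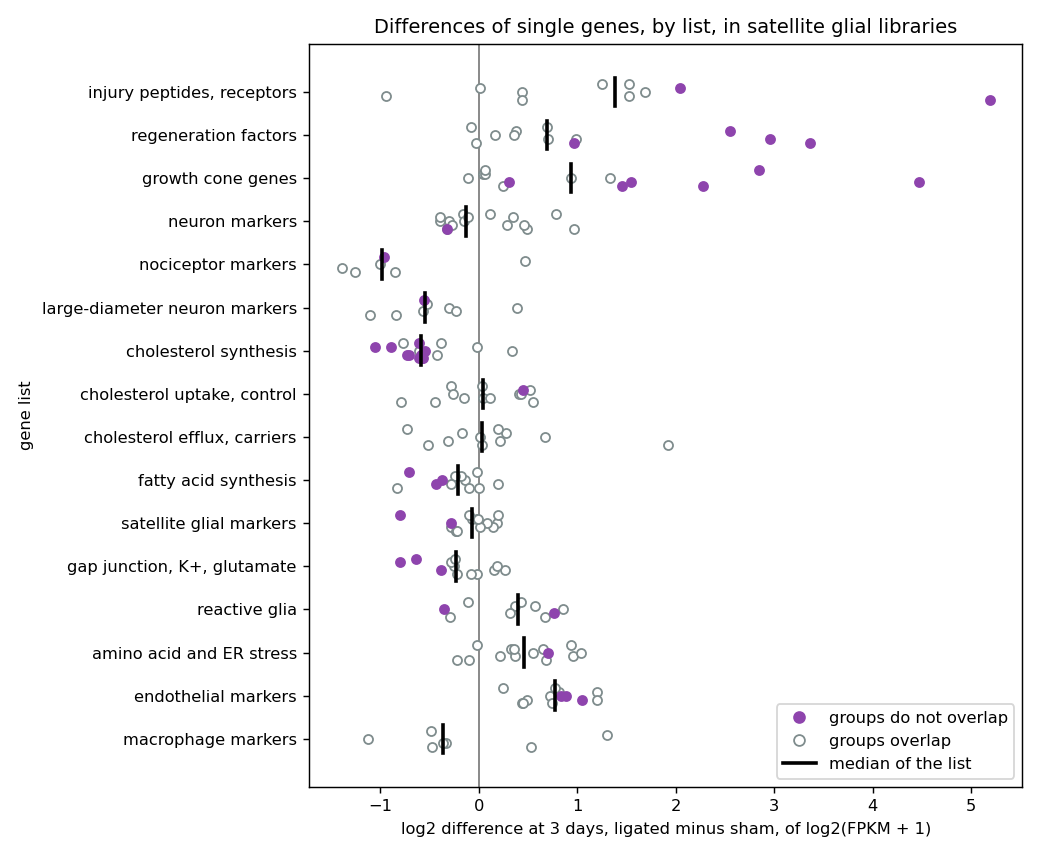
Log2 difference at 3 days, ligated minus sham, of the tested members of 16 gene lists, a row per list and a point per gene. Filled points are genes whose ligated and sham libraries do not overlap, open points are genes that overlap, and the black bar is the median of the list, which is -0.58 for cholesterol synthesis and 1.39 for injury peptides and receptors (0.44 to 3.11 over the alternatives).

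No gene of glial support was called. Of 12 genes of gap junctions, potassium, glutamate and water handling, 3 had a positive and 9 a negative difference, with a median log2 difference of -0.23 (-0.15 without ligated replicate 2). In the lower direction 5 had an unadjusted limma p under 0.05, where 4.87% of all genes had one. The groups did not overlap for 3 in the lower direction, where 2% of all genes were lower without overlap. Aqp4, the water channel of astrocytes and related glia, had 10.9, 12.1, 11.7 and 8.18 FPKM in the ligated libraries, against 18.1, 23.3, 12.4 and 25.97 FPKM in the sham libraries. Kcnj16, a subunit of inwardly rectifying potassium channels, had 2.31, 5.79, 4.51 and 6.09 FPKM in the ligated libraries, against 8.73, 7.60, 7.004 and 6.55 FPKM in the sham libraries. Both were lower in every ligated library, as was the chloride importer gene Slc12a2 (-0.38), with log2 differences of -0.80 ± 0.22 (SE; limma adjusted p = 0.279) and -0.63 ± 0.24 (SE; limma adjusted p = 0.431). Kcnj10, the main potassium channel of satellite glia, had 44.5 to 52.6 FPKM after ligation against 50.9 to 65.8 FPKM after sham surgery and a difference of -0.28 ± 0.12 (SE) with overlap. Gja1, the gap junction protein connexin 43, had 63.5 to 107 FPKM after ligation against 70.9 to 116 FPKM after sham surgery. Aldoc, a glycolytic enzyme of glia, was lower in every ligated library by -0.57 ± 0.12 (SE; limma adjusted p = 0.132), while the 12 genes of glucose and lactate handling had a median of -0.03.

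Of 12 reactive glia genes, 10 were tested, 7 with a positive and 3 with a negative difference and a median log2 difference of 0.40, with none called. Serpina3n, a protease inhibitor of reactive astrocytes, had 153, 145, 149 and 184 FPKM in the ligated libraries, against 82.5, 119, 66.8 and 109.7 FPKM in the sham libraries. All ligated libraries were above all sham libraries, and the log2 difference was 0.76 ± 0.18 (SE; limma adjusted p = 0.162). Gfap, the filament protein used to mark activated satellite glia, was below the filter with 0.0541, 0.0156, 1.09 and 0.926 FPKM in the ligated libraries, against 0.473, 0.017, 0 and 0 FPKM in the sham libraries. It reached 1 FPKM in ligated replicate 3 alone, so no change of Gfap was detectable in these libraries. Cp, ceruloplasmin, differed by -0.35 ± 0.13 (SE) with no overlap.

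Vascular and immune genes were examined because a sort can let other cells through. All 13 endothelial markers had a positive difference, 7 of them with an unadjusted limma p under 0.05, where 4.24% of all genes had one, 3 did not overlap, where 1.79% of all genes were higher without overlap, and none was called. The median log2 difference was 0.78, between 0.53 and 0.95 under every alternative, and the 13 summed to 741 to 1314 FPKM after ligation and 414 to 877 FPKM after sham surgery. Tek, the angiopoietin receptor, had 8.06, 7.07, 5.18 and 8.27 FPKM in the ligated libraries, against 3.36, 2.15, 2.30 and 4.02 FPKM in the sham libraries, and Esam, an endothelial adhesion molecule, had 39.4, 64.5, 47.1 and 56.7 FPKM in the ligated libraries, against 21.1, 35.6, 22.7 and 36.4 FPKM in the sham libraries. Neither overlapped, with log2 differences of 1.05 ± 0.28 and 0.84 ± 0.30 (SE). Plvap, of fenestrated vessels, differed by 0.88.

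Macrophage markers were near 0. Of 15, 7 reached the filter, 2 with a positive and 5 with a negative difference. Their median log2 difference was -0.36 (-0.84 to 0.04 over the alternatives). The list summed to 8.90 to 37.1 FPKM after ligation and 10.7 to 27.7 FPKM after sham surgery. C1qa, a complement subunit made by macrophages, had 5.13, 0.273, 0.997 and 0.0431 FPKM in the ligated libraries, against 0 FPKM in the sham libraries, and the authors' deposited table gave it a log2 fold change of 7.57 (adjusted p = 0.023). Adgre1, Csf1r, Cx3cr1 and Itgam did not reach the filter, and none of the 9 lymphocyte markers did. Of 5 neutrophil markers 2 did, and that list summed to 0.307 to 5.64 FPKM after ligation and 0 to 8.33 FPKM after sham surgery.

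Of 16 cytokines and growth factors, 10 were tested, with a median log2 difference of 0.14 (-0.07 without ligated replicate 3 and 0.31 without sham replicate 1). Ccl2, the chemokine that draws monocytes, had 5.42, 12.3, 24.6 and 16.9 FPKM in the ligated libraries, against 2.85, 4.34, 3.25 and 4.06 FPKM in the sham libraries. The groups did not overlap, and the log2 difference was 1.62 ± 0.54 (SE; limma adjusted p = 0.374), and the authors' deposited table gave 1.84 (adjusted p = 0.031). Cxcl12, a chemokine that endothelial cells also make, had 42.8 to 94.2 FPKM after ligation against 26.5 to 49.3 FPKM after sham surgery, a difference of 0.78 ± 0.25 (SE) with overlap. Of the antigen presentation genes, H2-K1 (0.36) and H2-D1 (0.56), class I chains whose reads near-identical copies can share, did not overlap, higher after ligation and not called. They were 2 of the 11 tested, where 1.79% of all genes were higher without overlap. C1ra (0.80), a complement protease, was higher and Cd55 (-0.48), a complement inhibitor, lower without overlap. Of the 8 complement genes tested, the groups did not overlap for 1 in each direction, where 1.79% (higher) and 2% (lower) of all genes did not. An unadjusted limma p under 0.05 was found for 4 in the higher direction and 1 in the lower, where 4.24% and 4.87% of all genes had one. The part of endothelial RNA in these differences was not tested.

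Stress of amino acid supply and protein folding was examined in 16 genes, of which 14 were tested, 11 with a positive and 3 with a negative difference and a median log2 difference of 0.46, none called. In the higher direction 6 had an unadjusted limma p under 0.05, where 4.24% of all genes had one. The list summed to 329.6 to 371 FPKM after ligation and 246 to 294 FPKM after sham surgery, with no overlap. Xbp1, a factor of the unfolded protein response, had 17.6, 25.98, 17.8 and 24.04 FPKM in the ligated libraries, against 11.6, 14.3, 16.4 and 9.15 FPKM in the sham libraries. It was the 1 member without overlap, where 1.79% of all genes were higher without overlap. The log2 difference was 0.70 ± 0.24 (SE; limma adjusted p = 0.382). Asns, asparagine synthetase, differed by 0.96 ± 0.41 (SE) with overlap. Slc7a5 was not analysed here.

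In the other lists no gene was called. Median log2 differences were 0.10 for myelinating Schwann cell markers (8 tested), -0.16 for repair Schwann cell markers (3 tested), 0.04 for fibroblast markers (7 tested), 0.01 for extracellular matrix (14 tested) and 0.04 for interferon response (13 tested). They were 0.16 for the cell cycle (11 tested), 0.14 for immediate early and dissociation genes (14 tested), -0.02 for the Notch pathway (8 tested), -0.16 for BMP and TGF-beta signalling (9 tested) and -0.01 for mitochondrially encoded genes (9 tested). Without sham replicate 1 the BMP and TGF-beta median was -0.41, and that of repair Schwann cell markers was -0.33 without ligated replicate 1. Fibroblast markers came to -0.15 without sham replicate 4, and immediate early genes to -0.12 without ligated replicate 3. Bmpr1a, a BMP receptor, was lower in every ligated library by -0.62 ± 0.16 (SE), and so was Timp3, an inhibitor of matrix proteases, by -0.22 ± 0.09 (SE). In 5 further lists the medians moved widely under the alternatives. The median was -0.43 for mural cell markers (4 tested; -0.61 to 0.06 over the alternatives), 0.60 for neutrophil markers (2 tested; 0.00 to 1.79) and 0.22 for erythrocyte markers (3 tested; -1.04 without ligated replicate 3 to 1.46 without sham replicate 3). It was 0.31 for antigen presentation (11 tested; 0.036 to 0.42) and 0.20 for complement (8 tested; -0.02 to 0.43). The mural and neutrophil medians and that of antigen presentation lay outside the quartiles of all genes. The sums of these 5 lists overlapped between the groups except for complement, 408 to 502 FPKM after ligation and 319 to 393 FPKM after sham surgery.

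Outside the lists, the genes with the lowest p among those expressed in all 8 libraries and free of overlap were a mixed set that missed the threshold. In the higher direction, the kinesin gene Kif22 had 14.9, 11.2, 22.8 and 19.1 FPKM in the ligated libraries, against 4.29, 0.585, 1.19 and 3.56 FPKM in the sham libraries and a log2 difference of 2.53 ± 0.47 (SE; limma adjusted p = 0.0717). S100a11, a calcium-binding protein, had 226, 193, 347 and 247 FPKM in the ligated libraries, against 92.5, 127, 109 and 90.98 FPKM in the sham libraries, with a difference of 1.24 ± 0.25 (SE; limma adjusted p = 0.0919). Lgals3, galectin-3, differed by 2.24 ± 0.50, Nsg1, a protein of neuronal endosomes, by 1.50 ± 0.32, Ppa1, a pyrophosphatase, by 1.28 ± 0.27 and the ubiquitin ligase gene Rnf4 by 0.71 ± 0.16 (SE). In the lower direction, the transcript 2900052N01Rik had 65.6, 90.2, 50.9 and 48.7 FPKM in the ligated libraries, against 114, 127, 117 and 165 FPKM in the sham libraries and a difference of -1.05 ± 0.19 (SE; limma adjusted p = 0.0578). The matrix protein gene Fbln2 differed by -0.58 ± 0.12, the secreted protease gene Htra1 by -0.64 ± 0.14 and the ATP synthase subunit gene Atp5h by -0.42 ± 0.09 (SE).

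Both remaining called genes were listed at 0 in all libraries of a group. Polr2b (ENSMUSG00000029250, chromosome 5, 77310147 to 77349324, plus strand), the second largest subunit of RNA polymerase II, was listed at 0 FPKM in the ligated libraries, against 6.44, 6.54, 4.73 and 5.44 FPKM in the sham libraries. limma called it lower (adjusted p = 3.8e-06), yet the authors' deposited table, made from counts, gave a log2 fold change of -0.31 with an adjusted p of 0.819. Every dividing and resting cell transcribes this gene, and at 14 days it had 4.84 to 6.75 FPKM after ligation and 5.02 to 8.38 FPKM after sham surgery. Snora21 (ENSMUSG00000064901, chromosome 11, 97781639 to 97781775, minus strand), a small nucleolar RNA that lies inside the gene Rpl23 on the same strand, had 126, 87.5, 847 and 136 FPKM in the ligated libraries, against 0 FPKM in the sham libraries. It was called higher (limma adjusted p = 0.0457), and its reads could be shared with those of Rpl23. The authors' deposited table gave it a mean normalized count of only 1.46 and no adjusted p. The FPKM values of this short gene therefore rest on very few counts, and so does its call.

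The authors' deposited table of the same libraries had 88 genes past an adjusted p of 0.05 in the higher direction (0.498% of the 17662 with an adjusted p) and 91 in the lower (0.515%). Of these 179 genes, 126 were tested here, 115 of them with an unadjusted limma p under 0.05 and 96 without overlap in FPKM. Over all 13924 genes tested, 1269 had such a p and 527 did not overlap. Both results rest on the same 8 libraries, so these counts are not an independent check. Of the 9 genes called here, 7 were past 0.05 in the deposited table. Its largest changes with a baseMean of at least 50 were, on the higher side, Crh, Stmn4, Tecta (5.48), an inner ear matrix protein, and the serotonin transporter gene Slc6a4 (5.28). Gal, Sox11, the semaphorin gene Sema6b (3.52) and Atf3 followed. On the lower side they were Zfp804a (-5.84), Trpa1, the glycosyltransferase gene Galnt14 (-3.06), 2700029L08Rik (-2.13), the endothelial lipase gene Lipg (-1.92), Il1rap (-1.76), the coreceptor of interleukin-1, D130007C19Rik (-1.61) and Nemp1 (-1.49). Most of these were low: Tecta had 2.79, 1.91, 0.433 and 2.14 FPKM in the ligated libraries, against 0.0126, 0, 0.0188 and 0.0162 FPKM in the sham libraries, and Zfp804a had 0.0147, 0.0276, 0.0274 and 0.0396 FPKM in the ligated libraries, against 3.42, 0.797, 0.488 and 0.184 FPKM in the sham libraries. Nemp1 was listed at 0 FPKM in all 8 libraries.

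The effect at 3 days was set against that at 14 days, which uses other libraries. A test of the difference between the effects called 1 gene (0.00718% of those tested), Polr2b (-2.68, limma adjusted p = 0.000602), and 584 genes (4.19%) had an unadjusted p under 0.05 in it. None of the injury or cholesterol genes was called in that test, so nothing about them is shown to be particular to 3 days. The log2 differences at 3 and 14 days were 5.19 and 4.37 for Gal, 2.95 and 2.04 for Sox11, 2.27 and 2.21 for Gap43, 3.36 and 1.81 for Atf3, and 2.55 and 0.99 for Gadd45a. Npy differed by 1.52 at 3 days and 4.12 at 14 days.

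By list, the median log2 difference at 3 and 14 days was 0.94 and 1.17 for growth cone genes, 0.69 and 0.57 for regeneration factors, -0.58 and -0.50 for cholesterol synthesis, and 0.78 and 0.47 for endothelial markers. Over all genes it was -0.01 and -0.02. Single enzymes with a smaller 14-day difference were Hsd17b7 (-0.89 at 3 days and -0.22 at 14 days) and Acly (-0.70 and -0.21), with unadjusted limma p of 0.0163 and 0.0196 for the change, neither called. Serpina3n differed by 0.76 at 3 days and 1.49 at 14 days, where it was called (limma adjusted p = 0.0066).

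**Figure D5:**
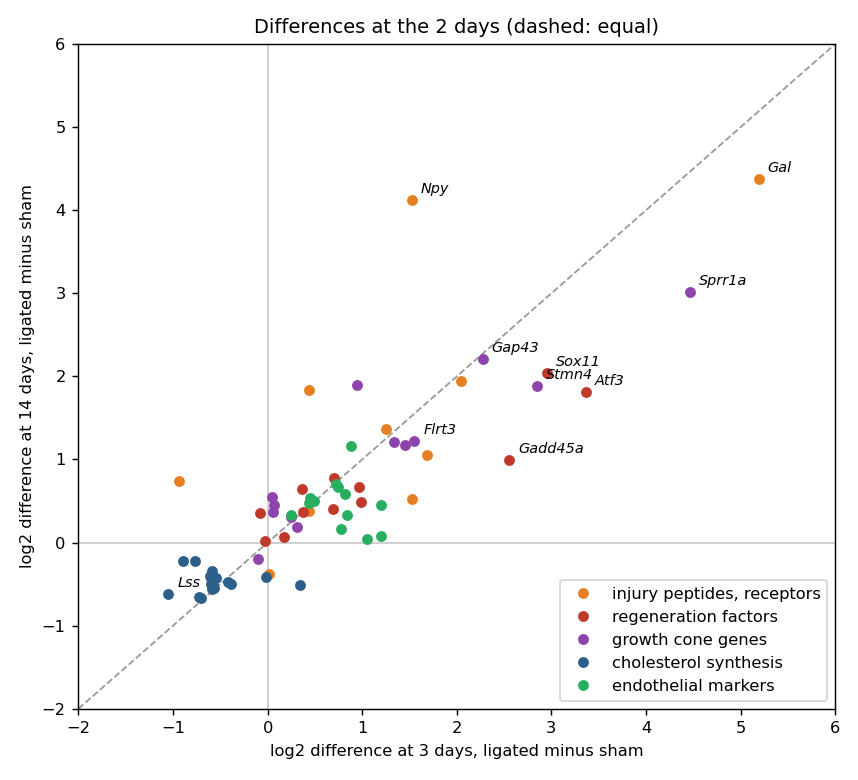
Log2 difference, ligated minus sham, of log2(FPKM + 1) at 3 days (horizontal) and 14 days (vertical) for the tested members of 5 gene lists, a point per gene, with equality as the dashed line. Gal is at 5.19 and 4.37, Atf3 below the line at 3.36 and 1.81, Npy above it at 1.52 and 4.12, and the cholesterol synthesis enzymes lie in the lower left except Mvk.

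Levels in the other preparations come from tables scaled separately and are given without a test. Gal had 373 to 2248 FPKM in neurons 8 days after partial ligation and 63.9 to 183 FPKM in neurons after sham surgery, and 0 to 10.2 FPKM in naive satellite glia against 9.36 to 57.9 FPKM in naive whole ganglia. Sprr1a had 339 to 916 FPKM in ligated and 0 to 96.5 FPKM in sham neurons, and was listed at 0 in all 4 naive satellite glial libraries. Stmn4 had 53.5 to 138 FPKM in ligated and 11.3 to 31.7 FPKM in sham neurons, and was likewise at 0 in naive satellite glia. In naive whole ganglia Stmn4 had 1.71 to 3.73 FPKM and Sprr1a 0.329 to 0.985 FPKM.

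Of the 17 cholesterol enzymes, 12 were higher in every naive satellite glial library than in any naive ganglion library, and Acat2, Mvk, Pmvk, Fdft1 and Ebp overlapped. Hmgcs1 had 389.8 to 459.5 FPKM in naive satellite glia against 171 to 203 FPKM in whole ganglia, and 267 to 429 FPKM in ligated and 229 to 419 FPKM in sham neurons. Lss had 28.2 to 38.2 FPKM in naive satellite glia against 12.4 to 18.7 FPKM in whole ganglia, with 7.95 to 12.4 FPKM in ligated and 6.76 to 14.7 FPKM in sham neurons. In neurons the ligated and sham ranges of both overlapped. Levels in neurons differed from enzyme to enzyme: Acat2 had 45.03 to 48.4 FPKM in naive satellite glia, against 215 to 376 FPKM in ligated and 214 to 306 FPKM in sham neurons. Flrt3, by contrast with Gal, had 4.09 to 8.64 FPKM in naive satellite glia and 4.08 to 5.71 FPKM in whole ganglia, with 32.5 to 72.9 FPKM in ligated and 8.72 to 22.6 FPKM in sham neurons. Smad1 had 6.61 to 10.6 FPKM in naive satellite glia and 14.1 to 18.6 FPKM in whole ganglia, and its neuron ranges overlapped at 8.86 to 16.1 FPKM after ligation and 7.71 to 18.7 FPKM after sham surgery.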

How the data were processed

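RNA sequencing of sorted satellite glia was described from 16 libraries after surgery, 4 per group, of which 8 were taken at 3 days. The build mm10 and the tools Cufflinks, DESeq2, SAMtools and STAR are named in the submitters' processing notes; their versions and order are not given in the sources used here. The authors deposited FPKM per transcript line, in 3 tables scaled separately. Per the file headers, their 3-day comparison holds a baseMean (a signal: the mean normalized count), a standard error score, log2 fold changes and adjusted p-values; the deposited log2 sign was turned round to ligated over sham, because 125 of the 126 tested genes past 0.05 had the opposite sign in FPKM. The deposited naive table has values written with decimal commas, read as FPKM. FPKM lines that share an Ensembl identifier (121) were summed. The libraries all differed from each other. A value of 0 in FPKM can be failed estimates, so genes are described as listed at 0.

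Genes with at least 1 FPKM in at least 4 of the 16 libraries were tested on log2(FPKM + 1), which understates the change of low genes, with limma 3.58.1 in R 4.3.3 (mean-variance trend, two-sided moderated test, 4 groups sharing a fit, no covariates) after a test on simulated data. Benjamini-Hochberg adjustment ran over all 13924 genes. Tables were made with Python 3.11.15 and pandas 2.3.3, figures with Matplotlib 3.10.9, and gene positions come from GENCODE M21 (GRCm38).

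The members and the 35 gene lists were chosen with earlier results of these data known. The rule named every gene called. It added the 8 lowest p-values in each direction among genes above 0 FPKM in all 8 libraries, with a mean of at least 5 FPKM and no overlap. It also named the members of 5 lists on injury and cholesterol and up to 3 members of each other list. From the authors' table it took the 8 largest changes in each direction past 0.05 with a baseMean of at least 50. Fabp7, Snap25, Gja1, Gfap, C1qa, Esam, Asns, Fads1 and Cd55 were named after their values were seen. Some members of the cholesterol lists and some genes the rule names are not reported here, and the counts, medians and figures of those lists leave them out. Alternatives were a pseudocount of 0.1, other filters and scalings, array weights, a replicate block, the compared groups alone and leaving out each library. Same-numbered ligated and sham libraries did not deviate together (correlations from -0.08 to 0.00 at 3 days and -0.04 to 0.07 at 14 days). No pairing by number was thus detected, but such correlations cannot show which libraries share an animal. The authors' 3 other comparison tables were not used here, and values of other groups entered no test.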

Additional observations from a re-analysis of the deposited data

Results flagged for a closer look

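In 13 of the 188 groups of 4 libraries examined, a library stood apart from the other 3 by Dixon's criterion on log2(FPKM + 1); chance gives about 1 in 20 groups. In ligated libraries, Lss was at 12.5 FPKM in replicate 4 against 14.5 to 14.7 FPKM in the others, and Atp5h at 522 FPKM in replicate 4 against 581 to 583 FPKM. Ligated replicate 2 had 17.7 FPKM of Smad1 against 23.9 to 24.9 FPKM, and 106 FPKM of Stat3 against 48.1 to 53.6 FPKM. Ligated replicate 1 had 0.608 FPKM of Ch25h against 9.09 to 13.6 FPKM, and 126 FPKM of H2-D1 against 139.5 to 142 FPKM. Kcnj10 was at 44.5 FPKM in ligated replicate 3 against 51.2 to 52.6 FPKM, and at 50.9 FPKM in sham replicate 1 against 64.1 to 65.8 FPKM.

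In sham libraries, Tubb2b was at 9.57 FPKM in replicate 1 against 3.14 to 3.41 FPKM in the others. Sham replicate 3 had 13.003 FPKM of Ppa1 against 6.84 to 7.36 FPKM, and 4.74 FPKM of Npy where the others were listed at 0. Sham replicate 4, the sham library with the most Gal, had 0.991 FPKM of Ecel1 against at most 0.0443 FPKM, and 0.998 FPKM of Cckbr where the others were listed at 0.

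The effect on Polr2b differed between the days, by -2.68 on the log2 scale (3 days minus 14 days; limma adjusted p = 0.000602); the gene was listed at 0 in all 4 ligated libraries at 3 days and in no sham library. The authors' deposited table gave no such change at 3 days (-0.31, adjusted p = 0.819).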

How the results depend on the processing

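The number of genes called at 3 days was 9. It was 14 with a pseudocount of 0.1, 1 with no filter on low values, 5 with libraries weighted by quality (array weights), and 4 when the fit held the 3-day groups alone. With the replicate number as a block it was 1, and whether the numbers pair the libraries is not known. Leaving out single libraries gave 1 to 13 calls; leaving out 14-day libraries was added after seeing the data. Calls for the difference between the days numbered 1, but 0 with only genes above 0 in all 16 libraries, 0 with the replicate block, and 1 to 4 when single libraries were left out. Polr2b was called under all 16 alternatives that tested it, Sox11 under 10 of 17, Flrt3 under 8, Gal under 7, Atf3 under 6, Hmgcs1 under 4 and Lss under 3, and Stmn4 under 6 and Snora21 under 5 of 16. The alternatives gave 1576 values of 94 genes, of which 85 lost the call, all of them values of the 9 called genes, and 7 gained it. The 1479 that kept direction and side of the threshold came mostly from genes not called in the main fit. A further 5, of 3 genes, changed sign. These were Nts (-0.26 to 1.06 when single libraries were left out), Jun (-0.058 to 0.402) and Stat3 (-0.336 to 0.042). Of 572 list medians, 555 moved by less than the spread between libraries. The cause of these changes was not tested. Without read counts, counting error at low levels is unknown.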
